A study of Mus musculus with 2 samples.

Results

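The cells described here are Lyz1-high Ear2-positive cells of mouse epididymal adipose tissue, picked out of 2 droplet libraries by their own unique molecular identifier (UMI) counts. Members were chosen by measured values, the UMI counts of 4 genes. A cell was a member when it held at least 10 UMIs of Lyz1 and at least 1 of Ear2, no more than 1 of Folr2 and 0 of Lyve1, after cells outside 200 to 3500 detected genes or above 10% mitochondrial UMIs had been left out. The rule found 289 members among 2364 kept cells of the control diet (CD) library and 567 among 2021 kept cells of the high fat diet (HFD) library, 856 of 4385 in all. Both libraries came from young adult male C57/BL6 mice, for which no genetic change is named, and each held sorted cells pooled from 3 mice. One group stayed on control diet and the other received the HFD overnight. The labels give the sorted gate as CD45+ Lin- Ly6Clow/- F4/80+, while another passage of the methods names CD11b and F4/80 without Ly6C, and the lineage stain covered T cells, B cells, eosinophils and neutrophils. With 1 library per diet no difference between diets had a replicate, so that no test was run, and the 95% intervals given with levels, ratios and shares cover counting error only.

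Adipose tissue macrophages (ATMs) are a mixture of long-lived resident cells and cells replenished from blood monocytes. Resident ATMs are known for the scavenging and endocytic receptors LYVE1, FOLR2, TIM4 and CD206, whereas monocytes enter the tissue through the chemokine receptor CCR2 and carry less of those receptors when they first differentiate. Lyz1 and Lyz2 encode lysozymes, which cut the peptidoglycan of bacterial walls. Ear2 encodes a secreted ribonuclease of the eosinophil-associated family that is also made by some monocyte-derived macrophages. Fn1 encodes the matrix protein fibronectin and Cd24a a small, heavily glycosylated surface protein.

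Lyz1 (chr10:117287797-117292868, minus strand, GRCm38) lies beside Lyz2 (chr10:117277331-117282321, minus strand), the lysozyme that macrophages in general express, and the pair have near-identical coding sequences. Over 444 coding bases without the stop codon they differed at 22, an identity of 95.05%. The stretches below are the 120 coding bases within 1 exon that held the most differences, and they are shown to let the close likeness of the copies be seen. Capitals mark the 13 bases at which the copies differ, and the stretches lie at chr10:117292713-117292832 for Lyz1 and at chr10:117282117-117282236 for Lyz2, both in exon 1 and both written 5′ to 3′ on the minus strand from the GENCODE annotation and transcripts of GRCm38.
Lyz1: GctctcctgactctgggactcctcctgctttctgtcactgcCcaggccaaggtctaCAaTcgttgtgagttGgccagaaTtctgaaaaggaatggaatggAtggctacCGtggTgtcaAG
Lyz2: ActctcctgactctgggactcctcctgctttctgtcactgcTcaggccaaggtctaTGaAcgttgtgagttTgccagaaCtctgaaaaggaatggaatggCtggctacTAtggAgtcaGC
Of the 1173 windows of 91 bases along the Lyz1 transcript, 42 (3.58%) were also present in Lyz2, and 14 of 410 (3.41%) were shared in the last 500 bases, the end that 3′ libraries read.

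Ear2 (chr14:44102654-44103534, plus strand) has a closer relative in Ear10 (chr14:43922720-43923559, minus strand). Over 468 coding bases they differed at 14, an identity of 97.0%. The 120-base stretches with most differences are given for the same reason, with the 8 differing bases in capitals, at chr14:44103138-44103257 on the plus strand for Ear2 and at chr14:43922998-43923117 on the minus strand for Ear10.
Ear2: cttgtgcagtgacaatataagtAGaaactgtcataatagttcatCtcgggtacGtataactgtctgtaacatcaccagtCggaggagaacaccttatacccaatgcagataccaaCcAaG
Ear10: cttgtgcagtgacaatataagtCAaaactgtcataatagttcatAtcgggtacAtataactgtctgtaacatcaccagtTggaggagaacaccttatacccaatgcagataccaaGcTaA
Ear2 shared 95 of 629 windows of 91 bases (15.1%) with Ear10, and 35 of 410 (8.54%) in the last 500 bases. Members held 0 UMIs of Ear10 (CD) and 1 (HFD), with 1 and 2 UMIs of Ear1 and none of Ear6 or Ear14. Reads common to the copies cannot be assigned to either.

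Members were among the deeper cells of both libraries. Their median depth was 7396 UMIs in the CD library (range 1523 to 19714) and 6419 in the HFD library (910 to 18583), against 4113 and 1927.5 in other kept cells. They showed a median of 2116 and 1892 detected genes, against 1569 and 944, and a median mitochondrial share of 2.47% and 2.10%, against 4.45% and 4.54%. A rule that asks for 10 UMIs of a gene favours deep cells, and all levels below are therefore given as CPM, the UMIs of a gene per 1000000 UMIs of the same cells. Members supplied 2346956 UMIs in the CD library (19.1% of those in kept cells) and 3800553 in the HFD library (47.0%). The libraries shared 14 barcodes of all those deposited, 7 of the kept cells and 0 of the members.

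The genes that picked the cells had the following levels, which describe the choice. Lyz1 stood at 9095 CPM in CD members and 10307 in HFD members, against 1712 and 1801 in the other kept cells. Ear2 stood at 1951 and 2667, against 561 and 851. Of the 2 further marker genes, which the rule did not name, Fn1 reached 3413 in CD members and 2827 in HFD members, against 985 and 1119. Cd24a reached 239 and 131, against 79.9 and 60.0. The log2 ratio of members to others was 1.79 (CD) and 1.34 (HFD) for Fn1 and 1.58 and 1.13 for Cd24a. These 2 markers were thus higher in members of both libraries.

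Depth was equalized by drawing 1500 UMIs from each cell, which left out 13 HFD members and no CD member. At that depth Fn1 was found in 96.2% of CD and 94.4% of HFD members, against 30.1% and 36.4% of other cells, and against 12.5% and 13.1% of the Lyve1-positive Folr2-positive cells that serve here as the type expected to lack it. Cd24a was found in 26.6% and 16.8% of members (53.3% and 38.4% before thinning), against 5.78% and 4.23% of other cells and 1.47% and 0.52% of Lyve1-positive Folr2-positive cells. Fibronectin transcript was therefore a property of nearly every member and Cd24a transcript of a minority at this depth. Lyz1-high cells with more than 1 Folr2 UMI held Fn1 at 2565 (CD) and 1883 (HFD) CPM. It was found in 87.7% of those CD cells after thinning, so that Fn1 was not particular to members. Cd24a stood at 137 (CD) and 91.5 (HFD) CPM in the same cells. In 14.5% of those CD cells it was found after thinning, so that Cd24a was not particular to members either.

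Genes of blood monocytes gave a divided picture. Ccr2, the receptor by which classical monocytes leave marrow and enter tissue, stood at 738 CPM in CD members and 704 in HFD members, against 519 and 527 in other cells, a log2 ratio of 0.51 (CD) and 0.42 (HFD). At 1500 UMIs it was present in 67.5% and 60.5% of members and in 24.3% and 22.5% of Lyve1-positive Folr2-positive cells. Lyz1-high cells with more than 1 Folr2 UMI stood at 866 and 786 CPM, with Ccr2 in 69.2% and 73.9% of cells, so that it was not particular to members. Ly6c2, the antigen of the Ly6C gate, was at 1.28 and 2.10 CPM, against 13.4 and 14.7 in others. At 1500 UMIs it had a UMI in 0 of 289 CD members, where a count of 0 allows a share of up to 1.04% of cells with a UMI at this depth, and in 0.18% of HFD members. This limits cells with a UMI, not cells that express the gene. Plac8, a cysteine-rich protein abundant in monocytes, was at 8.52 and 10.3, against 29.7 and 160. The haptoglobin gene Hp was at 0.43 and 1.84, against 8.05 and 19.6. Members thus held Fn1 and Ccr2 above the other kept cells as a whole and were near 0 for Ly6c2, Plac8 and Hp. The part of the sort in the low Ly6c2 was not tested. The libraries do not trace lineage, and the cells are named here by the genes of the rule.

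Genes of other cell types were summed in the same way. Dendritic cell genes summed to 595 CPM in CD members and 603 in HFD members, against 520.3 and 582 in others, and were led by the transcription factor Batf3 at 336 and 329, against 176 and 195 in others, while the dendritic cell receptor Flt3 was at 0.85 and 1.05, Zbtb46 at 1.70 and 0.79, Ccr7 at 0 and 0.53 and Xcr1 at 0 in both libraries. Eosinophil genes summed to 5.97 CPM in CD members and 3.42 in HFD members, all of it from Siglecf, with the other 5 of the 6 listed genes at 0. Neutrophil genes summed to 38.3 and 44.5 (top gene Mmp9), against 171 and 177 in others, and B cell genes to 51.6 and 45.8 (top gene Ighm), against 301 and 179. T and natural killer cell genes summed to 11.1 and 17.6 (top gene Il7r), against 6.64 and 6.53, with 7 of 8 listed genes at 0 in CD members and 4 of 8 in HFD members. Stromal genes summed to 118 and 68.1 (top gene Gsn), against 252 and 85.9, adipocyte genes to 25.6 and 19.5 (top gene Cfd), against 74.3 and 55.3, and endothelial genes to 3.41 and 3.95, against 18.0 and 18.4. Genes of peritoneal macrophages summed to 18.3 and 14.5, against 36.9 and 179. Mast cell and mesothelial genes had no UMI in members. Summed levels of the neutrophil, B cell, stromal, adipocyte, endothelial and peritoneal macrophage lists were thus lower in members than in their neighbours, and those of the T cell and eosinophil lists were higher at low levels. The dendritic cell sum was higher in members and rested mostly on Batf3. The part of other cell types in the results was not tested.

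Members formed a larger share of the kept cells in the HFD library. They were 12.2% of the CD cells, with an exact binomial interval of 10.9 to 13.6%, and 28.1% of the HFD cells, with one of 26.1 to 30.1%. The HFD share thus exceeded the CD share by 15.8 points, interval 13.5 to 18.2. Taken over every barcode deposited, the shares were 6.48% of 4459 and 17.9% of 3163. The criteria removed cells unequally. Lyz1 alone kept 23.5% of CD and 33.3% of HFD cells, Ear2 left 22.6% and 32.2%, and the limit on Folr2 left 13.8% and 29.99%. The libraries were thus 9.57 points apart after the Lyz1 and Ear2 criteria and 16.2 points apart after the Folr2 step, which left 326 of 534 CD cells and 606 of 650 HFD cells.

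The share of members climbed with depth in both libraries and was larger in the HFD library at each depth compared. Between 1500 and 3000 UMIs, 12 of 520 CD cells (2.31%) and 61 of 506 HFD cells (12.1%) were members. Between 3000 and 6000 UMIs the numbers were 80 of 963 (8.31%) and 184 of 472 (39.0%), and between 6000 and 12000 UMIs 153 of 608 (25.2%) and 274 of 444 (61.7%). Over the same libraries Lyve1-positive Folr2-positive cells made up 970 CD cells (41.0%) and 216 HFD cells (10.7%). These are shares of the cells that were sorted, loaded and passed the filters, and more cells of one kind in a fat pad cannot be told apart from fewer of another or from unequal recovery.

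**Figure D1:**
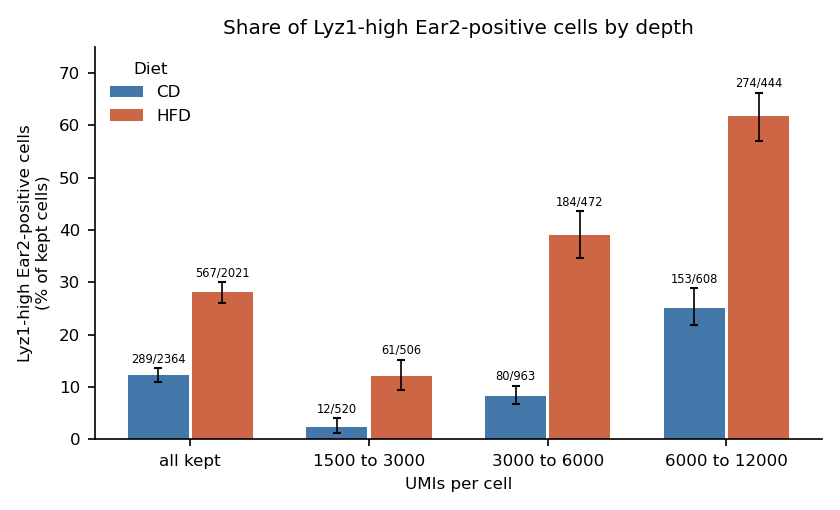
Percentage of kept cells that were Lyz1-high Ear2-positive members (vertical axis) by the cell's total UMIs (horizontal axis, bins), for the CD library in blue and the HFD library in orange, with exact binomial 95% intervals. In the bin from 3000 to 6000 UMIs the share was 8.31% (CD) and 39.0% (HFD).

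Members were then described against the other kept cells of their own library, gene by gene. Because the rule chose these cells by their counts, the ratios are a description of the choice and no test was made. Among 9081 genes with at least 50 UMIs in the CD library, 239 (2.63%) were at least 2-fold higher in members and 1288 (14.2%) at least 2-fold lower. In the HFD library 153 of 8150 genes (1.88%) were at least 2-fold higher and 713 (8.75%) at least 2-fold lower. The median log2 ratio over all genes was -0.22 (CD) and -0.18 (HFD), so that a ratio near 0 was already above the middle of the genes. Scaling by the median ratio in place of the total gave 378 higher and 999 lower genes in the CD library and 229 and 545 in the HFD library. Of 214 genes higher in CD members and measured in both libraries, 112 were also higher in HFD members, which is 52.3% of the CD list and 77.2% of the 145 HFD genes. Of 927 lower genes, 522 were lower in both, 56.3% of the CD list and 73.9% of the 706 HFD genes.

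Genes of the resident macrophage program were lower in members throughout. Of 26 listed genes with enough counts, 26 were at least 2-fold lower in CD members and 24 in HFD members, with a median log2 ratio of -3.15 and -2.88. Over all genes 14.2% (CD) and 8.75% (HFD) were at least 2-fold lower. The list includes Folr2 and Lyve1, which the rule limited. Apoe, the apolipoprotein that carries lipid out of macrophages, was at 1064 CPM in CD members and 1707 in HFD members, against 10302 and 11450 in others (log2 -3.28 and -2.75). Pf4, a platelet-type chemokine that resident ATMs express, was at 474 and 447, against 4102 and 3462. Selenop, the selenium carrier, was at 541 and 448, against 4932 and 3253. The complement genes showed the smaller distances, C1qa standing at 1026 and 932 against 4518 and 3086, and Csf1r, the receptor for the macrophage growth factor, at 314 and 242 against 934 and 673. Timd4, which encodes TIM4, was found in 0.69% and 0.18% of thinned members and in 8.33% and 3.69% of thinned other cells.

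Transcription factors lay on both sides. Maf, which maintains the macrophage state, was lower, with log2 ratios of -2.71 (CD) and -2.61 (HFD). Irf8, a regulator of monocyte and dendritic cell development, was at -2.84 and -2.42. On the other side, Id2, an inhibitor of basic helix-loop-helix factors, was at 277 and 325 CPM in members against 92.1 and 147 in others, a log2 ratio of 1.59 and 1.14. Bhlhe40, a repressor known from cytokine-producing T cells and macrophages, gave 1.43 and 1.33, and Nr4a3, an orphan nuclear receptor induced by stimulation, 1.07 and 1.12. Over the whole list of transcription factors 4 of 22 were at least 2-fold higher and 5 lower in the CD library and 4 and 3 of 21 in the HFD library, with medians of 0.05 and -0.01. Among all genes 2.63% were higher and 14.2% lower in the CD library, and 1.88% and 8.75% in the HFD library.

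Of 8 classical monocyte genes measured in the CD library 2 were higher (Fn1 and the coagulation factor gene F10) and 4 lower, and of 9 in the HFD library 1 was higher and 5 lower, with medians of -1.39 and -2.80. Of the non-classical monocyte genes 0 were higher and 1 of 8 (CD) and 3 of 7 (HFD) were lower. Of 9 dendritic cell genes in the CD library 1 was higher and 5 lower, and of 8 in the HFD library 0 were higher and 4 lower, with medians of -1.49 and -0.76. These counts stand beside a background of 2.63% higher and 14.2% lower in the CD library and 1.88% and 8.75% in the HFD library. Of 19 adhesion and matrix genes in the CD library 6 were at least 2-fold higher and 0 lower, and in the HFD library 3 were higher and 1 lower, with medians of 0.36 and 0.11. Beside Fn1 and Cd24a, Adam8, a sheddase of leukocyte adhesion proteins, was at 118 and 112 CPM in members and 32.8 and 67.2 in others. Tgfbi, a secreted matrix protein, went the other way, at 370 and 241 against 642 and 426. The S100 calcium-binding proteins lay above the middle of all genes, with medians of 0.53 and 0.46, and S100a11 at 780 and 819 against 338 and 445. The alarmin genes S100a8 and S100a9, which mark neutrophils and classical monocytes, had no more than 3 UMIs in members of either library.

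Genes for secreted signals were mixed. Of 23 cytokine and chemokine genes, 3 were at least 2-fold higher and 9 lower in CD members, and 2 and 8 in HFD members. The shares over all genes were 2.63% higher and 14.2% lower (CD), and 1.88% and 8.75% (HFD). Il6 stood at 265 CPM in CD members and 271 in HFD members, against 63.7 and 97.8 in others (log2 2.06 and 1.47). Il1rn, the antagonist of the interleukin-1 receptor, stood at 215 and 131, against 55.7 and 64.2. Il1b was at 1017 and 1038, against 455 and 665. It was found in 57.1% and 63.0% of thinned members but in 10.3% and 14.7% of Lyve1-positive Folr2-positive cells. These 3 genes were thus higher in members of both libraries than in other kept cells, although Il1b passed 2-fold in the CD library alone. Lyz1-high cells with more than 1 Folr2 UMI held Il1b at 758 (CD) and 874 (HFD) CPM, and in 48.0% of thinned CD cells. In the same cells Il6 stood at 132 (CD) and 175 (HFD) CPM and Il1rn at 104 and 140. None of the 3 was thus particular to members, and Il1rn was no higher in HFD members than in these cells. Chemokine genes differed in direction. Ccl6 stood at 5587 and 6844 against 4256 and 5985, Ccl7 at 268 and 258 against 1364 and 873, and Ccl2 at 598 and 599 against 1504 and 1190. Among chemoattractant receptors, Ccrl2, a decoy-like receptor for chemerin, was at 220 and 303 against 65.3 and 138, whereas C5ar1, the receptor for complement C5a, was at 72.4 and 142 against 440 and 707.

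Antigen presentation genes differed little as a list. The invariant chain gene Cd74 was at 23482 CPM in CD members and 27600 in HFD members, against 20614 and 25705 in others, and H2-Aa at 8003 and 8113, against 8002 and 8662. Of 10 genes 1 was at least 2-fold higher in each library and none lower. That gene was H2-DMb2, a chain of the peptide-loading chaperone, at 228 and 107 against 64.2 and 38.5, a log2 ratio of 1.83 and 1.48. All-gene shares were 2.63% higher and 14.2% lower (CD), and 1.88% and 8.75% (HFD).

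Retnla, which encodes the secreted protein RELMα known from alternatively activated macrophages, was at 48862 CPM in CD members and 56227 in HFD members, against 31687 and 26648 in others. The ratio was 0.62 (CD) and 1.08 (HFD) on the log2 scale. Lyz1-high cells with more than 1 Folr2 UMI held Retnla at 52832 (CD) and 59734 (HFD) CPM, so that it was not particular to members. Lectin receptors of the same list lay far on the other side, Mrc1 (CD206) at 264 and 252 against 974 and 775, and Clec10a at 115 and 119 against 633 and 546. Of 8 genes of alternative activation measured in the CD library 2 were at least 2-fold higher and 3 lower, and of 9 in the HFD library 2 were higher and 4 lower. Among all genes 2.63% were higher and 14.2% lower (CD), and 1.88% and 8.75% (HFD).

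Lipid handling and lysosomal genes were on the lower side. Of 22 lipid genes 2 were at least 2-fold higher and 7 lower in the CD library, and 0 and 7 of 21 in the HFD library, with medians of -0.46 and -0.34. This count and those of the next 2 lists stand beside 2.63% higher and 14.2% lower (CD) and 1.88% and 8.75% (HFD) of all genes. Abca1, the exporter of cholesterol to lipoproteins, was at 24.3 and 33.2 CPM in members against 140 and 196 in others, and Cd36, the fatty acid and lipoprotein scavenger receptor, at 320 and 612 against 927 and 1382. Lpl, the lipase that releases fatty acids from triglyceride-rich lipoproteins, was higher in members, at 1464 and 987 against 616 and 739. Of 20 lysosomal genes none was 2-fold higher, and 7 were lower (CD) and 5 (HFD). Ctsb, a cathepsin protease, was at 645 and 773 against 2410 and 2371. Of the genes that mark lipid-associated macrophages 2 of 10 were 2-fold higher and 2 lower in the CD library, and 0 and 4 of 9 in the HFD library. Their receptor Trem2 was at 17.5 and 14.7 against 100.3 and 64.9.

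Interferon-induced genes were lower in 8 of 15 (CD) and 5 of 14 (HFD) by 2-fold or more and higher in none. Immediate early genes, which dissociation of tissue is known to raise, were 2-fold lower in 6 and 3 of 19 and higher in none, with medians of -0.57 and -0.66. Glycolysis genes lay above the middle, with medians of 0.59 and 0.46, and had 1 gene 2-fold higher and 2 lower of 15 in the CD library and 1 higher and 0 lower of 16 in the HFD library. The higher gene was the hexokinase gene Hk2, at 86.5 and 74.5 CPM against 39.0 and 35.7. The counts of 2-fold genes in these lists are to be read against the same background.

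**Figure D2:**
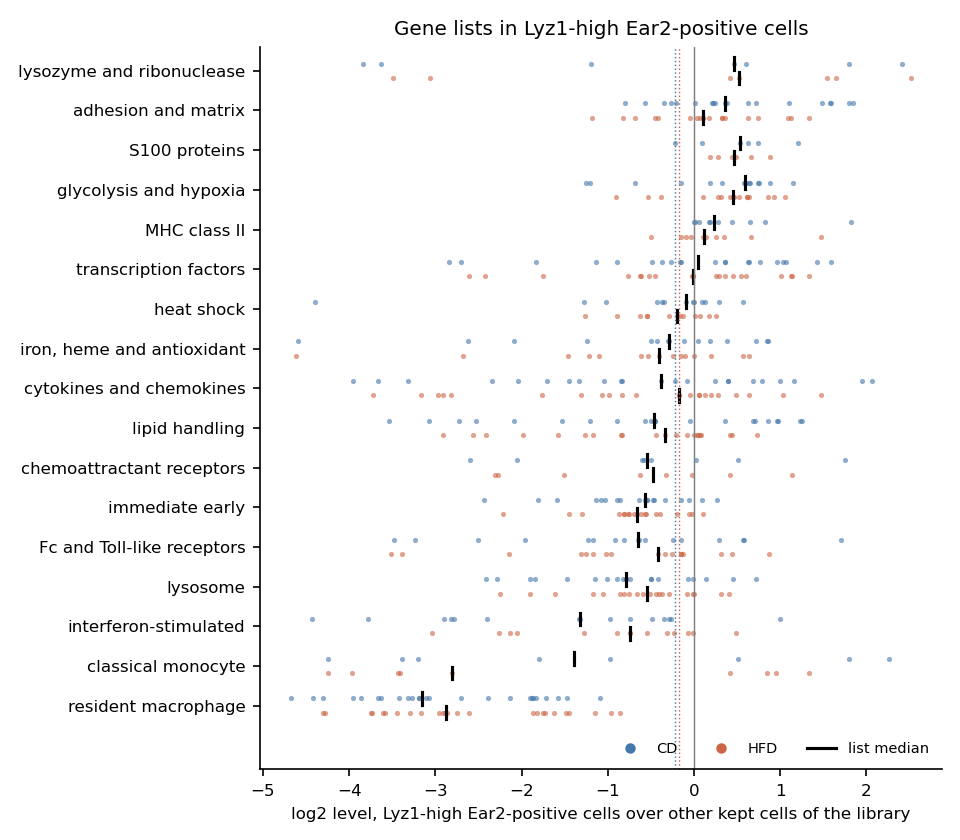
Log2 ratio of members to other kept cells (horizontal axis) for each gene with at least 50 UMIs in 17 gene lists (rows), CD in blue and HFD in orange, with list medians as black bars and the medians over all genes (-0.22 and -0.18) as dotted lines. The resident macrophage list lies lowest, with medians of -3.15 and -2.88.

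Outside the lists, genes were ranked by the smaller of their ratios in the 2 libraries. Akr1c18, an aldo-keto reductase that inactivates progesterone, led the higher genes at 107 CPM in CD members and 113 in HFD members (log2 2.64 and 2.40). Mmp12, the macrophage elastase, followed with 2.12 and 2.76, and its UMIs came from 26 CD and 65 HFD member cells with as many as 75 and 124 in 1 cell. Areg, which encodes the epidermal growth factor receptor ligand amphiregulin, gave 2.11 and 2.04, and was found in 23.5% and 16.1% of thinned members and 0.95% and 0.52% of Lyve1-positive Folr2-positive cells. Lyz1-high cells with more than 1 Folr2 UMI held Areg at 152 (CD) and 132 (HFD) CPM, against 262 and 170 in members. It was found in 11.9% of those CD cells after thinning, so that Areg was not particular to members. Cd2, an adhesion receptor best known from T cells, gave 1.84 and 1.87. Dcstamp, a protein of macrophage fusion, gave 2.34 and 1.67, Cebpe, a transcription factor of granulocyte maturation, 2.14 and 1.65, and Ltb4r1, the leukotriene B4 receptor, 1.85 and 1.55. Cebpe stood at 94.2 (CD) and 43.9 (HFD) CPM in members, and at 52.6 and 43.0 in Lyz1-high cells with more than 1 Folr2 UMI. Aldh1a2, which makes retinoic acid, gave 1.65 and 1.52. The others of the 12 highest were Mthfd1 (1.81 and 1.78), Net1 (1.98 and 1.72), Hr (1.97 and 1.57) and Ryr1 (1.56 and 1.52).

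Of the 12 genes ranked lowest, 4 were hemoglobin genes. They were at log2 -4.87 (CD) and -7.37 (HFD) for Hba-a1, -4.76 and -7.51 for Hba-a2, -4.54 and -6.67 for Hbb-bt and -4.41 and -6.62 for Hbb-bs. Erythroid genes together summed to 43.5 and 14.5 CPM in members and 1049 and 1760 in other cells, with Hbb-bs as the most abundant gene in members, and their part in the other results was not tested. Hbb-bs had a UMI in 16.3% of CD members and 16.05% of other CD cells, and in 5.64% and 3.92% of HFD cells, before thinning. At 1500 UMIs no member held more than 1, while a single other cell held 301 (CD) and 703 (HFD), so that a few cells outside the members carried much of this RNA. When only cells of 2000 to 6000 UMIs were compared, the CD ratio was 0.22 for Hba-a2 and 0.18 for Hbb-bs, and against other cells with at least 1000 genes the HFD ratio of Hbb-bs was 0.02. The sign of the ratios of Hba-a2 (CD) and Hbb-bs thus depended on which cells were compared. The others were Slc40a1 (ferroportin, the iron exporter) at -4.60 and -4.61, Cd209f at -4.30 and -4.30, Ms4a7 at -4.31 and -4.28, Hpgd at -4.32 and -4.16, Cbr2 at -3.96 and -3.73, the chemokine gene Ccl12 at -3.96 and -3.73, Saa3 at -4.16 and -4.78 and Rcn3 at -4.77 and -3.85.

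The nearest cells were those with at least 10 Lyz1 UMIs and more than 1 Folr2 UMI, whatever their Ear2 count, 227 CD cells (9.6% of kept cells) and 46 HFD cells (2.28%). They were as deep as members or deeper, with medians of 9081 (CD) and 8101 (HFD) UMIs. Of 2235 genes compared in both libraries, members were at least 2-fold higher in both for 1, Mmp12 (log2 2.13 and 2.58), and at least 2-fold lower in both for 31. The genes of the rule were left out of the 1 and the 31. Folr2 divided these cells from members and Lyve1 was limited in members alone, so that lower resident genes follow in part from the choice. Among the lower genes were the ficolin gene Fcna (-2.55 and -2.82), Igfbp4 (-2.16 and -2.39), Pf4 (-2.04 and -2.44), the leukotriene C4 synthase gene Ltc4s (-2.02 and -2.83), Apoe (-1.90 and -2.11), Selenop (-1.90 and -2.23), C1qc (-1.68 and -1.86), Maf (-1.67 and -1.66) and C5ar1 (-1.68 and -1.63). Next to Mmp12 on the higher side, by the smaller of both ratios, were Napsa, an aspartic protease (0.96 and 1.15), Ltb4r1 (0.95 and 0.97) and Net1 (0.91 and 2.08). The HFD values of this comparison rest on 46 cells.

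**Figure D3:**
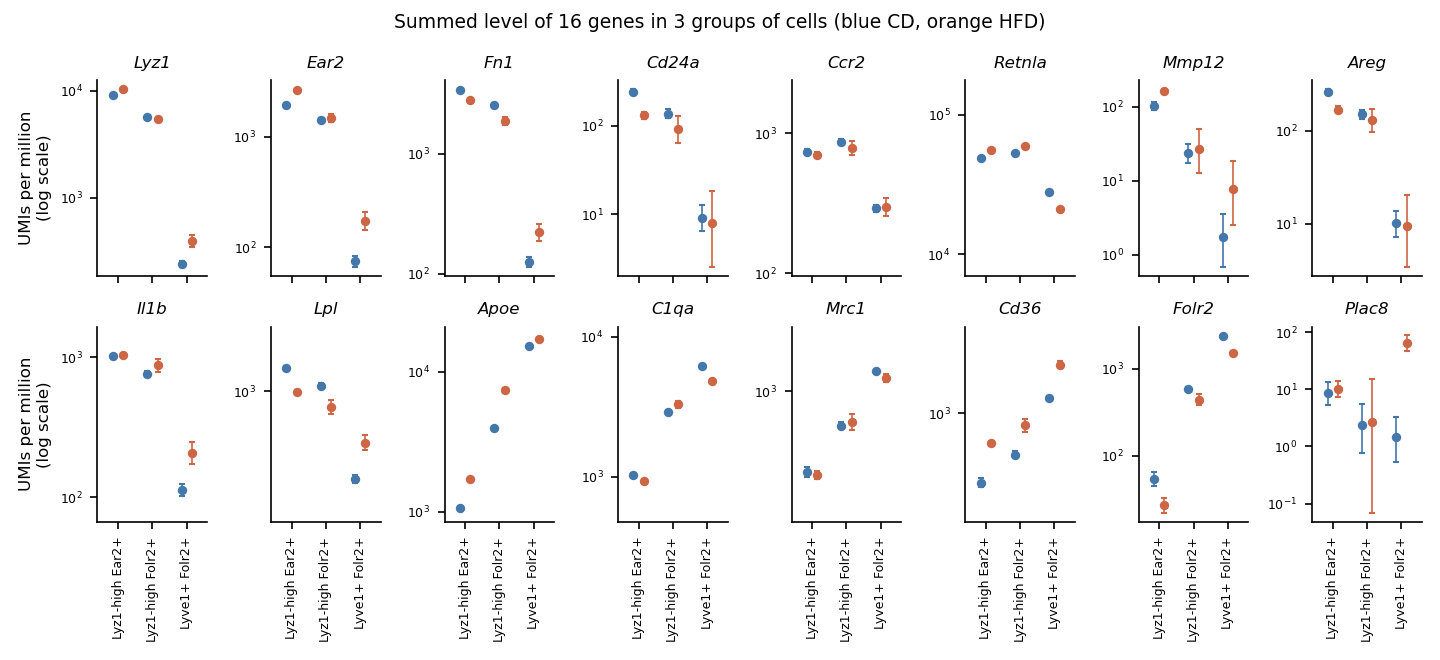
Levels of 16 genes in CPM (vertical axis, log scale, exact Poisson 95% intervals) in Lyz1-high Ear2-positive members, Lyz1-high Folr2-positive cells and Lyve1-positive Folr2-positive cells, CD in blue and HFD in orange. Fn1 stands at 3413 and 2827 in members, and Apoe at 1064 and 1707.

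At the edge of the rule, 12 CD and 34 HFD members had 10 to 12 Lyz1 UMIs, and 15 CD and 39 HFD cells that met the other criteria had 7 to 9. The cells just inside held a median of 4274.5 and 2525.5 UMIs and those just outside 2870 and 2393. Ear2 was at 2384 CPM inside and 1523 outside in the CD library, and at 2458 and 2313 in the HFD library. Fn1 was at 3036 inside and 2795 outside (CD) and at 3351 and 2209 (HFD). Apoe, which the rule did not use, was at 1269 inside and 2954 outside (CD) and at 2700 and 8209 (HFD). Cells just outside the limit thus held more Apoe than those just inside in both libraries, while the counting intervals of the inner and outer cells overlapped for Ear2 in the HFD library and for Fn1 in the CD library.

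Members varied among themselves. At 1500 UMIs a cell the median member held 11 Lyz1 UMIs in the CD library (10th to 90th percentile 4 to 25) and 12.5 in the HFD library (5 to 29). Retnla had a median of 60 (22 to 151) and 72 (29.3 to 154.7), and Ear2 of 2 (0 to 7) and 3 (1 to 8). Apoe had a median of 1 in both libraries but reached 39 UMIs in a CD cell and 53 in an HFD cell. Of 359 genes with a mean of at least 0.5 UMIs in both libraries, 41 had a variance at least 2 times their mean in both, where counting alone gives a ratio near 1. Ranked by the smaller value of both libraries, the largest of these ratios were those of Retnla (37.9 in CD members and 32.1 in HFD members), the nuclear RNA Malat1 (19.3 and 25.2), Actb (15.6 and 12.3) and Cd74 (13.3 and 10.7), followed by Apoe (7.49 and 11.4), Lyz1 (7.20 and 7.40), Lyz2 (6.92 and 7.41) and C1qa (5.42 and 4.93).

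Within members some genes varied together. Cd74 and H2-Aa had a Pearson r of 0.73 over 289 CD cells and 0.69 over 554 HFD cells, Lyz2 and Cd74 0.54 and 0.53, and Lyz1 and Lyz2 0.39 and 0.39. The rule cut off low values of Lyz1, which limits the range behind its value. Fn1 ran against Cd74 (-0.26 and -0.18), and the immediate early gene Nr4a1 ran against Lyz2 (-0.24 and -0.27) and with Il1b (0.21 and 0.26). These values describe cells that share a library and were drawn to the same depth, and a gene with very many UMIs takes draws from the rest. Windows shared between Lyz1 and Lyz2, given above, apply to their value as well.

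**Figure D4:**
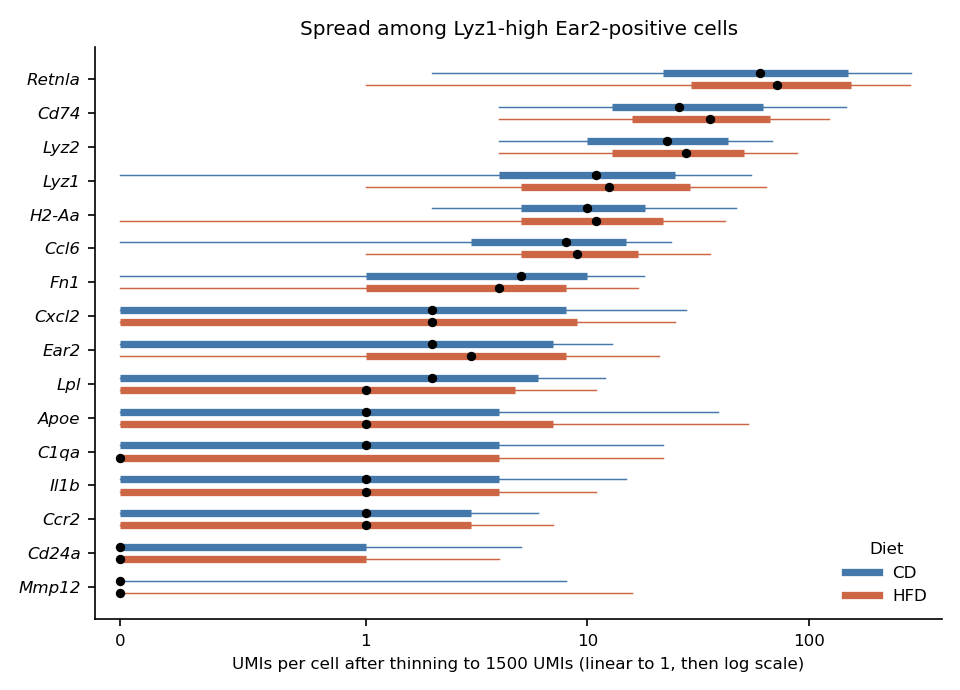
UMIs per member cell (horizontal axis) of 16 genes after drawing 1500 UMIs from each cell, with a thin line from the lowest to the highest cell, a thick line from the 10th to the 90th percentile and a dot at the median, CD in blue (289 cells) and HFD in orange (554 cells). Retnla spans the widest range, with medians of 60 and 72.

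Overnight HFD was compared with CD within members, beside the same ratio in the other kept cells. Of 7100 genes with at least 50 UMIs in members, 173 (2.44%) passed 2-fold, 110 (1.55%) higher and 63 (0.887%) lower in the HFD library, with a median log2 ratio of 0.03 over all genes. In the other kept cells 384 of 9469 genes (4.06%) passed 2-fold, 157 (1.66%) higher and 227 (2.4%) lower, with the same median of 0.03. The 4 markers stayed under 2-fold. The rule asked for Lyz1 and Ear2 in members of both libraries, which limits what their ratios in members can show. Lyz1 had a log2 ratio of 0.18 (interval 0.16 to 0.20) in members and 0.07 in others, Ear2 of 0.45 (0.40 to 0.50) and 0.60, Fn1 of -0.27 (-0.31 to -0.23) and 0.18, and Cd24a of -0.87 (-1.04 to -0.69) and -0.41. Both groups of cells came from the same 2 libraries, so that a difference between libraries enters both ratios.

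Lipid handling was led by Plin2, which coats lipid droplets and whose transcript is known to be induced by fatty acids. It stood at 269 CPM in CD members and 728 in HFD members, and at 369 and 1300 in other cells, log2 ratios of 1.43 and 1.82. It was found in 30.8% and 57.2% of thinned members and in 39.4% and 76.4% of other cells. Cd36 stood at 320 and 612 (log2 0.94) and was found in 31.1% and 53.8% of thinned members. Lpl was lower, at 1464 and 987 (log2 -0.57), and was found in 76.1% and 60.6% of members, whereas in other cells its log2 ratio was 0.26. Of 18 lipid genes measured in members 2 were at least 2-fold higher, Plin2 and the scavenger receptor gene Msr1 (1.37), and 0 lower, with a median of 0.21. In other cells 6 of 22 were higher and 1 lower, with a median of 0.38. Over all genes 1.55% were higher and 0.887% lower in members, and 1.66% and 2.4% in other cells.

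Other lists held few genes past 2-fold, to be read beside 1.55% of all genes higher and 0.887% lower in members. Of 20 lysosomal genes 1 was higher in HFD members, the cathepsin gene Ctsl (1.02), and Ctsd was at 671 and 1310 CPM (0.96). Of 12 heat shock genes 2 were higher, Hspa1a (1.02) and Hspa1b (1.47), and the same 2 ratios were 1.0 and 1.64 in other cells. Among 14 Fc and Toll-like receptor genes Fcgr4 (1.97) and the inflammasome sensor gene Nlrp3 (1.08) were higher, and among 21 cytokine genes Osm (1.46) was higher and Ccl8 (-2.42) lower. Single genes on the higher side were Rnase2a (2.37) of 6 lysozyme and ribonuclease genes, Cxcr4 (1.36) of 7 chemoattractant receptors, Vegfa (1.75) of 16 glycolysis and hypoxia genes, and Thbs1 (2.05) and Mmp19 (1.14) of 18 adhesion genes. None of 19 immediate early genes, 21 transcription factors, 9 interferon-induced genes and 14 iron and heme genes passed 2-fold in members.

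Some genes of resident macrophages were lower in HFD members, at levels that were low to begin with. Of 24 listed genes 5 were at least 2-fold lower and 0 were higher, with a median of -0.19. Folr2, whose level the rule limited, was 1 of the 5. In other cells 8 of 26 were lower, with a median of -0.51. The shares lower over all genes were 0.887% in members and 2.4% in other cells. Cd209f stood at 49.4 CPM in CD members and 13.4 in HFD members (log2 -1.88), and at 972 and 264 in others. Cbr2 stood at 35.4 and 8.95 (-1.98), and at 550 and 119 in others. Ccl8, a chemokine of resident ATMs, stood at 26.8 and 5.0 (-2.42), and at 341 and 44.8 in others. Apoe went the other way, from 1064 to 1707 (0.68). Since the rule admits 1 Folr2 UMI and libraries differ in how many resident cells they hold, the part of RNA from neighbouring cells in these low values was not tested.

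Cell cycle genes were lower in HFD members, in few cells. Of 8 listed genes with 50 UMIs in members 5 were at least 2-fold lower, and 10 of 12 in other cells, with medians of -1.42 and -1.65. Over all genes 0.887% were at least 2-fold lower in members and 2.4% in other cells. Ube2c, which ubiquitinates mitotic cyclins, stood at 38.3 CPM in CD members and 6.58 in HFD members, from 16 and 12 cells. Top2a, the topoisomerase of dividing cells, stood at 32.0 and 10.0, from 23 and 16 cells, and was found in 3.46% and 0.90% of thinned members. Ccnb2 (-1.86) and Birc5 (-1.74) came from 12 and 15 and from 19 and 13 cells. As 1 cell in division gave up to 24 UMIs of Ube2c, the intervals of these genes, which take UMIs as independent, are too narrow.

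Many of the highest ratios of HFD to CD members rested on few UMIs. Aldh1l1, a folate enzyme, had 4 UMIs in CD members and 106 in HFD members, 1.70 and 27.9 CPM, a log2 ratio of 4.03 (2.63 to 5.93) beside 3.43 in others. Clec4d, a C-type lectin receptor for mycobacterial glycolipids, stood at 7.24 and 47.6 (2.72, interval 2.0 to 3.53) beside 3.44 in others. Thbs1, the matrix protein thrombospondin-1, stood at 41.8 and 173 (2.05, interval 1.74 to 2.37), beside 3.20 in others, and was found in 4.15% and 17.9% of thinned members. Fkbp5, a co-chaperone gene that glucocorticoids are known to induce, stood at 5.97 and 24.7 (2.05, interval 1.23 to 2.98), beside 1.05 in others. The remaining named genes on this side that were also at least 2-fold higher in others were Ramp3 (2.13 and 1.77), Fcgr4 (1.97 and 1.91), F5 (1.83 and 2.09), Vegfa (1.75 and 2.61), Hist2h2aa1 (1.77 and 1.88), Hist1h4i (1.71 and 1.45) and the predicted genes Gm10076 (3.55 and 3.33) and Gm6563 (2.55 and 2.55), which may share reads with near-identical copies elsewhere.

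Of 108 genes at least 2-fold higher in HFD members and measured in both groups of cells, 31 (28.7%) were also 2-fold higher in others. Another 15 had the opposite sign there. Of 63 lower genes 28 (44.4%) were also 2-fold lower in others, and 7 had the opposite sign. For a few of the named genes the ratio in members lay apart from that in the other cells. Rnase2a, a ribonuclease of the family of Ear2, stood at 6.82 CPM in CD members and 35.3 in HFD members (log2 2.37, interval 1.62 to 3.22), and at 15.6 and 12.1 in others (-0.36, interval -0.84 to 0.10). It was found in 1.38% and 4.69% of thinned members, and shared none of the 91-base windows of Ear2. Cttnbp2nl gave 2.18 (0.94 to 3.70) in members and -0.14 (-0.52 to 0.24) in others. Zdhhc14, a palmitoyltransferase, gave 1.80 (0.70 to 3.09) and 0.60 (0.28 to 0.92). Over the other settings of filters, rule and scaling the ratio in members ran from 1.61 to 2.44 for Rnase2a, from 0.99 to 2.29 for Cttnbp2nl and from 0.99 to 1.80 for Zdhhc14. On the lower side, Agfg2 gave -2.18 (-3.14 to -1.30) in members and 0.08 (-0.40 to 0.55) in others, Mdga1 -2.05 (-2.99 to -1.19) and -0.03 (-0.82 to 0.72), Stk32c -1.57 (-2.35 to -0.82) and -0.14 (-1.08 to 0.72), and Klrb1a -1.59 (-2.17 to -1.02) and -0.46 (-1.22 to 0.25). Among the genes named by rank the intervals of members and others did not overlap for Rnase2a, Cttnbp2nl, Agfg2, Mdga1, Thbs1 and Aif1. Of these, Thbs1 was further from 0 in the others and Aif1 further from 0 in members. The genes were picked for their ratios in members, so that ratios nearer 0 in others follow in part from the choice. Member UMIs (CD and HFD) were few, at 6 and 44 for Cttnbp2nl, 42 and 15 for Agfg2 and 41 and 16 for Mdga1. No conclusion is therefore drawn from intervals that do not overlap. The intervals cover counting error only, and whether mice differ in these genes was not measured.

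The lower genes named by rank that remained were shared with the other cells in direction. Aif1, which encodes the actin-binding macrophage protein IBA1, stood at 113 CPM in CD members and 30.3 in HFD members (log2 -1.91, interval -2.23 to -1.58), and at 392 and 170 in others. The lysosomal sulfatase gene Arsb gave -1.79 and -1.49, and Cd209b -1.54 and -1.25. Among more abundant genes, S100a4 stood at 1328 and 604 (-1.14) beside 916 and 430 in others, H2-DMb2 at 228 and 107 (-1.09), and Retnla at 48862 and 56227 (0.20), where other cells gave -0.25. Of the 173 genes past 2-fold in members, 172 had the same direction under each of those 14 other settings of filters, rule and scaling at which they had at least 50 UMIs. The exception was Mucl1, in which 276 of the HFD UMIs came from 2 cells, and without these its log2 ratio was 0.40 (-0.15 to 0.97).

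Several other ratios in members moved by more than 1.5 times (fold scale) over the other settings. They ran from 3.61 to 4.62 for Aldh1l1, from 2.68 to 4.38 for Clec4d, from 1.40 to 2.18 for Ramp3, from 1.29 to 2.40 for Fkbp5, from 1.25 to 2.74 for Thbs1 and from 1.39 to 2.62 for Hist1h4i. On the lower side they ran from -3.37 to -2.13 for Ube2c, from -3.25 to -2.30 for Ccl8, from -2.59 to -1.64 for Aif1, from -2.58 to -1.57 for Ccnb2, from -3.08 to -1.38 for Birc5 and from -2.49 to -1.11 for Top2a. Each of these stayed past 2-fold. Their direction was fixed by the choice, which took only genes with 1 direction under every alternative.

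**Figure D5:**
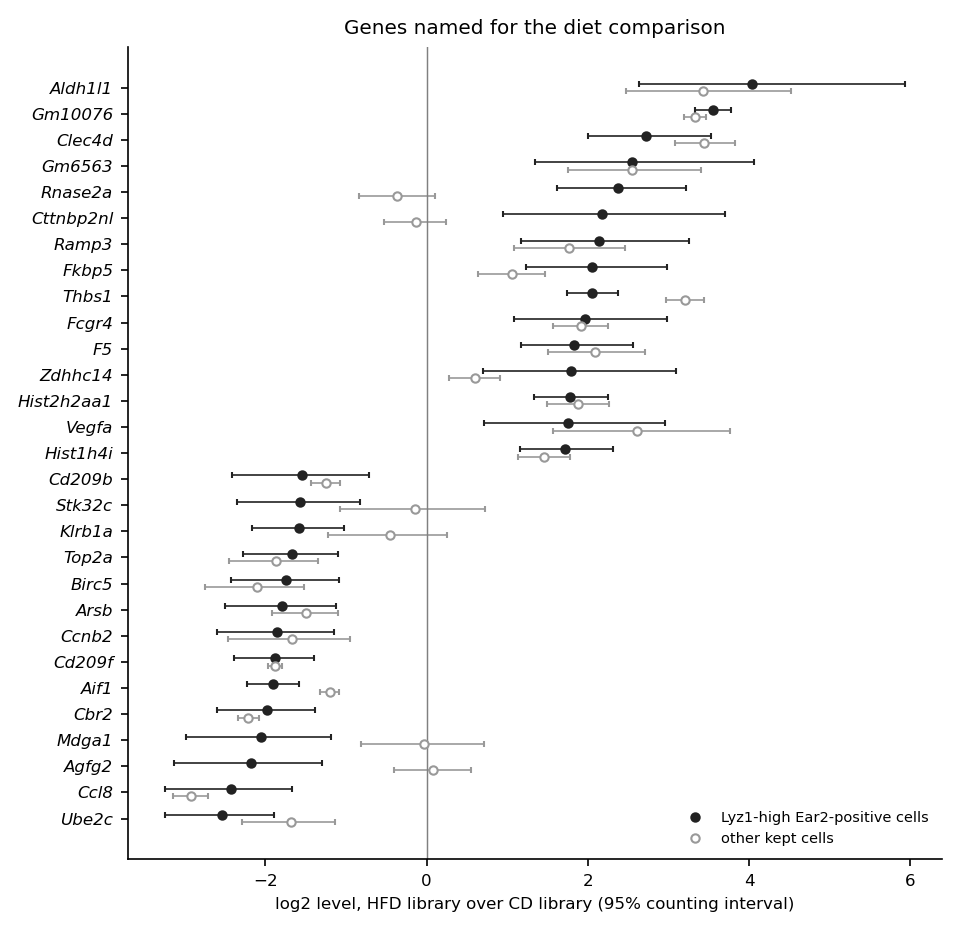
Log2 ratio of HFD to CD (horizontal axis) for the genes named by rank (rows) in members (filled) and in other kept cells (open grey), with 95% counting intervals. Aldh1l1 is at 4.03 and 3.43, while Rnase2a is at 2.37 in members and -0.36 in others.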

How the data were processed

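Cells of each diet were captured by 10x Genomics 3′ V2 droplets. The deposited counts are unnormalized UMI counts per gene and barcode (31053 gene rows), made by the authors with Cell Ranger 3.0.2 on mm10. Library totals were 15003119 (CD) and 9164686 (HFD) UMIs over 4459 and 3163 barcodes. Cells with fewer than 200 or more than 3500 genes (29 and 23 CD, 16 and 6 HFD) or above 10% mitochondrial UMIs (2059 and 1132) were left out. Scrublet (scanpy 1.11.5) marked 1 and 7 barcodes at its own threshold, where 3.57% (CD) and 2.53% (HFD) of barcodes were expected. Its calls were not used, and no doublet was removed. Of the 159 and 80 barcodes that scored highest, 2 and 20 were members.

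Levels are CPM, the UMIs of a gene summed over cells per 1000000 of the cells' UMIs. Intervals are exact Poisson (levels), exact conditional binomial (log2 ratios), Clopper-Pearson (shares) and Newcombe (difference of shares), at 95%. Thinning drew 1500 UMIs per cell, seed 7. Ratios were taken for genes with at least 50 UMIs, and 2-fold was the limit for counting. Steps were tested on simulated counts. Python 3.11.15, numpy 2.4.6, scipy 1.17.1 and pandas 2.3.3 were used.

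The members, the 33 gene lists (384 of 385 genes matched) and all rules were chosen with earlier results of these data known. Named genes were up to 6 per list, the 12 highest and 12 lowest of members over others (at least 200 UMIs in each library), and the 15 highest and 15 lowest of HFD over CD with 1 direction under every alternative. A gene that these rules would name is not reported here. Other named genes were chosen after their values were seen. Alternatives changed filters, thresholds, scaling, count minimum and depth.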

Additional observations from a re-analysis of the deposited data

How the results depend on the processing

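Each diet had 1 library, so no result was checked against variation between mice. No paired analysis was possible because each diet had 1 library and the labels carry no replicate numbers. Depth limits low genes: a gene without a UMI in the 289 CD members at 1500 UMIs may still have one in up to 1.04% of such cells, and cells that express it are not bounded.

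The share of members was larger in the HFD library under every alternative run, but its size moved with the filters, and the cause was not tested. CD share, HFD share and difference in percentage points were 9.25%, 20.6% and 11.3 with a mitochondrial limit of 20%, 17.3%, 39.4% and 22.1 with a limit of 5%, 13.8%, 44.1% and 30.4 among cells with at least 1000 genes, 10.4%, 23.5% and 13.1 with at least 20 Lyz1 UMIs, 18.3%, 48.7% and 30.4 with the rule on cells thinned to 3000 UMIs, and 14.8%, 35.5% and 20.7 on cells thinned to 1500 with at least 5 Lyz1 UMIs. With at least 5 Lyz1 UMIs the HFD share was 31.6% and the difference 18.4, and without cells that held other types' markers which left 633 CD and 1231 HFD kept cells, an unequal part of the 2364 and 2021, the CD share was 17.4% and the difference 11.6. Alternatives added after seeing the data gave 6.81% and 23.0% with 0 Folr2 UMIs, and 22.6%, 32.2% and 9.57 with no limit on Folr2 and Lyve1.

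Counts of 2-fold genes followed the count minimum and the choice of cells. For HFD over CD in members, 318 were higher and 166 lower at 20 UMIs, 20 and 16 at 200 UMIs, 62 higher among cells of 2000 to 6000 UMIs, 38 lower without cells holding other types' markers and 120 lower with no limit on Folr2 and Lyve1. For members over others in the CD library, the higher genes were 378 with median-ratio scaling, 366 as the mean over cells, 135 at 200 UMIs, 134 without cells holding other types' markers and 429 among cells of 2000 to 6000 UMIs, and the lower genes 588 at 200 UMIs and 622 without those cells. In the HFD library, the higher genes were 74 with the rule on 3000 UMIs, 96 without cells holding other types' markers, 277 as the mean over cells, 232 at 20 UMIs, 67 at 200 UMIs and 96 with 0 Folr2 UMIs. The lower genes there were 457 among cells with at least 1000 genes, 350 with the rule on 3000 UMIs, 1107 as the mean over cells, 1164 at 20 UMIs, 282 at 200 UMIs, 450 among cells of 2000 to 6000 UMIs and 452 against others with at least 1000 genes.

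Of the values of single named genes under alternatives, 1315 stayed close to the value reported, 298 moved and 3 changed sign. These 3 were CD members over others among cells of 2000 to 6000 UMIs for Hba-a2 (0.22) and Hbb-bs (0.18), and HFD members over others with at least 1000 genes for Hbb-bs (0.022), and the cause was not tested.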
